A study of Mus musculus with 8 samples.

Results

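The transcripts described here are 7 noncoding host genes of small nucleolar RNAs (snoRNAs): Snhg1, Snhg3, Snhg5, Snhg6, Snhg8, Snhg12 and Gas5. They were chosen because their signal had been noted as lower in embryonic stem cells without Zfx, so their values in that comparison are a description and carry no test. Every probe set annotated to 1 of these symbols alone was taken, which gave 16 of the 45037 probe sets on the array and 7 of the 18193 genes. Snhg1 had 5 probe sets, Gas5 had 4, Snhg5 had 3, and the other genes had 1 each.

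A snoRNA host gene is transcribed and spliced like a messenger RNA, but its product lies largely in the introns, from which snoRNAs are trimmed and packed with proteins that guide methylation or pseudouridylation of ribosomal RNA. Box C/D snoRNAs guide methylation and box H/ACA snoRNAs guide pseudouridylation. The spliced host RNA often starts with a terminal oligopyrimidine tract, a run of C and T at the start site that is also typical of ribosomal protein genes and places translation under growth control. Many host RNAs carry only short reading frames and are degraded by nonsense-mediated decay once ribosomes load on them, so the level of the spliced RNA depends on both transcription and translation. The arrays measured polyadenylated host RNA and not the snoRNAs inside it.

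The series profiled murine embryonic stem cells (ESC) and hematopoietic stem cells (HSC) with and without Zfx, a zinc finger transcription factor encoded on the X chromosome, on Affymetrix mouse genome arrays, with 2 arrays in each of 4 groups. ESC carried either the floxed allele (Zfx-flox, the control) or the deleted allele (Zfx-null), and these clones were cultured with 15% Knockout SR and LIF without feeders; how many clones stand behind each group is not stated in the sources used here. HSC were Lin-, Sca1+, c-Kit+ bone marrow cells from Mx1-Cre+ Zfx flox/y males (Zfx-cko) and from Zfx flox/y littermates without Cre (Zfx-flox), with 4 to 6 animals pooled and all of them taken 4 days after the last injection of pI·C, the interferon inducer that switches on Mx1-Cre. Mx1-Cre acts in many interferon-responsive cells, both HSC groups received pI·C, and the sorted population holds progenitors as well as stem cells. Samples were hybridised in duplicate, so p-values here cover array-to-array spread, and that may be technical only.

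ESC RNA was amplified in 1 round and HSC RNA in 2 rounds, and a second round is known to give shorter copies weighted to the 3′ end. The log2 ratio of the 5′ to the 3′ Gapdh control probe set was 0.38 to 0.44 on the ESC arrays, -4.25 and -4.18 for control HSC, and -4.68 and -4.39 for deleted HSC. Cell type and amplification therefore cannot be told apart. Pearson's r of log2 signals was 0.980 to 0.987 between duplicates and 0.963 to 0.971 between the groups of 1 cell type. Probe set 1422249_s_at, annotated to Zfx and Zfa-ps, read 285 and 298 in ESC Zfx-flox against 1.32 and 0.878 in Zfx-null. In HSC it read 7.22 and 0.971 against 1.34 and 0.305, so it does not check the HSC labels. Of the others annotated to both, 1428047_s_at was higher in ESC Zfx-null, with 182 and 184 in Zfx-flox against 492 and 471. On 1439404_x_at the ESC groups overlapped (97.8 and 131 against 82.5 and 128), and in HSC the groups overlapped on both. The 4 probe sets annotated to Zfx alone were each higher on both Zfx-null arrays in ESC; in HSC Zfx-cko, 2 were higher, 1 was lower (1419565_a_at, with 97.4 and 84.7 against 109 and 162 in controls) and 1 overlapped. Whether any of these Zfx probe sets lie in the deleted part was not tested. Marker genes also differed between the groups compared: 4 of 7 ESC markers were lower in Zfx-null (summed signal 30047 to 31076 in Zfx-flox, 18548 to 19409 in Zfx-null), 3 of 7 fibroblast markers were higher there (11282 to 11682 against 20109 to 21354), and 6 of 6 stem and progenitor markers were higher in HSC Zfx-cko (5304 to 5497 in Zfx-flox, 14631 to 14675 in Zfx-cko). The part of these shifts in the values below was not tested, and in bulk RNA fewer cells of a type and less RNA per cell cannot be told apart.

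The start sites of the hosts show what they share in sequence. RefSeq promoter windows (build GRCm38.p6) were found for 6 of the 7 genes (all but Snhg6), and Gas5 had 2 of them. The sequences below run from 50 bases before to 50 bases after the annotated start, 5′ to 3′ on the gene's strand, with the longest run of C and T that reaches within 10 bases of the start on either side in capitals, counted to its full length.
Snhg1 (chr19:8723437-8723536, plus strand): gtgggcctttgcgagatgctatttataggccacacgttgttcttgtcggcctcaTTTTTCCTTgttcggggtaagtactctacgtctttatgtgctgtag
Snhg3 (chr4:132353637-132353736, minus strand): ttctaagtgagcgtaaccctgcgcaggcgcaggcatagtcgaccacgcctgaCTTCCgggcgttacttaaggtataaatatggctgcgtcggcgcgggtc
Snhg5 (chr9:88522848-88522947, minus strand): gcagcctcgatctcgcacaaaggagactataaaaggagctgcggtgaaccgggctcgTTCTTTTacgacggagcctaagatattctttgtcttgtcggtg
Snhg8 (chr3:123508287-123508386, minus strand): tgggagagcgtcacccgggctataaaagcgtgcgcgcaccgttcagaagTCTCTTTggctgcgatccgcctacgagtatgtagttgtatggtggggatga
Snhg12 (chr4:132308628-132308727, plus strand): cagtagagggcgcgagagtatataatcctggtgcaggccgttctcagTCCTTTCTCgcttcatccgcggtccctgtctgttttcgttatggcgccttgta
Gas5, first start (chr1:161034551-161034650, plus strand): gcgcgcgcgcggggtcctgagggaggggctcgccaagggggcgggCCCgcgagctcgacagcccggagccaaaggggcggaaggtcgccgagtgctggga
Gas5, second start (chr1:161035116-161035215, plus strand): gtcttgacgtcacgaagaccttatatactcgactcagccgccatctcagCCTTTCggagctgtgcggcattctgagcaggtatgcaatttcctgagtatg

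The run of pyrimidines was 9 bases long in Snhg1 and Snhg12, 7 in Snhg5 and Snhg8, 6 at the second Gas5 start, 5 in Snhg3 and 3 at the first Gas5 start. It spanned the annotated start in Snhg8 (positions -1 to 6), Snhg12 (-3 to 6) and the second Gas5 window (-1 to 5). It began after the start in Snhg3 (3 to 7), Snhg1 (5 to 13) and Snhg5 (8 to 14). In the first Gas5 window it lay before the start (-5 to -3). Runs of at least 7 bases stood in 4 of the 7 windows and in 19.7% of the 32851 promoter windows of the table, which were searched in the same way. The shares depend on the length asked for. At 5 bases or more they were 6 of 7 against 44.9%, at 8 or more 2 of 7 against 13.7%, and at 10 or more 0 of 7 against 6.97%. The letters TATAA, searched on both strands, stood between 45 and 15 bases before the start in 5 of the 7 windows, against 4.87% of all windows. Snhg3 was an exception, with TATAA at position 23 after the start, and the first Gas5 start had none. AGGCCT, also searched on both strands, was in 0 of the 7 windows and in 10.3% of all 300-base windows, and AGGCC, which lies within AGGCCT, was in 5 of 7 against 50.6%. These matches describe the letters of the windows and locate no bound factor.

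The hosts carry different cargo. RefSeq places 8 snoRNA genes inside Snhg1, among them Snord22, and 8 inside Gas5, among them Snord47. Snhg3 holds 2, Snora73a and Snora73b, which belong to an H/ACA family needed for processing of the ribosomal RNA precursor. Snhg12 holds Snora16a, Snora44, Snora61 and Snord99, Snhg8 holds Snora24, Snhg6 holds Snord87, and Snhg5 holds 2.

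In ESC, each of the 7 host genes was lower without Zfx. The 2 arrays of Zfx-null were below the 2 arrays of Zfx-flox on 13 of the 16 probe sets, and the mean was lower on 16 of 16. Over all probe sets tested, 34.8% showed that separation; since the genes were chosen for these values, nothing is read from the count. The median difference over the 7 genes, each taken at its brightest probe set by mean log2 signal, was -0.42 on the log2 scale, beside -0.03 over all genes tested. A log2 value here is of the signal plus 14.2, which slightly understates changes at low signal.

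Snhg3 differed most. Its signal was 2272 and 2108 on the control ESC arrays, against 1368 and 1169 without Zfx, a mean 42.1% lower (log2 difference -0.78). Snhg12, a near neighbour of Snhg3 on chromosome 4, had 1438 and 1519 in control ESC, against 1060.0 and 1015 without Zfx, or 29.8% lower. In ESC, both Zfx-null arrays lay well under both controls for Snhg3 and for Snhg12.

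Snhg6 read 1754 and 1490.0 in control ESC, against 1244 and 1161 without Zfx, a mean 25.9% lower. Snhg8 read 1306 and 1231 against 1019.9 and 1035, or 19% lower. Snhg5, the host of box C/D snoRNAs for 28S ribosomal RNA, read 2861 and 2754 against 2443 and 2354 on 1428529_at, or 14.6% lower. The groups did not overlap for any of these, and Snhg5 had the smallest difference in percent. The other Snhg5 probe sets were dim: 1432738_at read 92.9 and 62.1 against 50.6 and 68.1, with the groups overlapping, and 1432737_at read 7.02 to 13.4 on the ESC arrays, under the signal added before the logarithm.

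Gas5, first described as a transcript that accumulates in growth-arrested cells, was lower on each of its 4 probe sets. The brightest, 1419291_x_at, read 4249 and 3940.0 in control ESC, against 2758 and 2924 without Zfx (30.6% lower). The log2 differences of the 4 probe sets were -0.52, -0.52, -0.48 and -0.38, so they gave like values in ESC. The 5 probe sets of Snhg1 were less alike, at -0.34, -0.41, -0.52, -0.13 and -0.60. Its brightest, 1433674_a_at, read 4496 and 4531 against 3587 and 3547. On 1439399_a_at, with 3369 and 4061 against 3201 and 3570.2, the groups overlapped. The choice of genes set no threshold on the size of the difference.

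**Figure D1:**
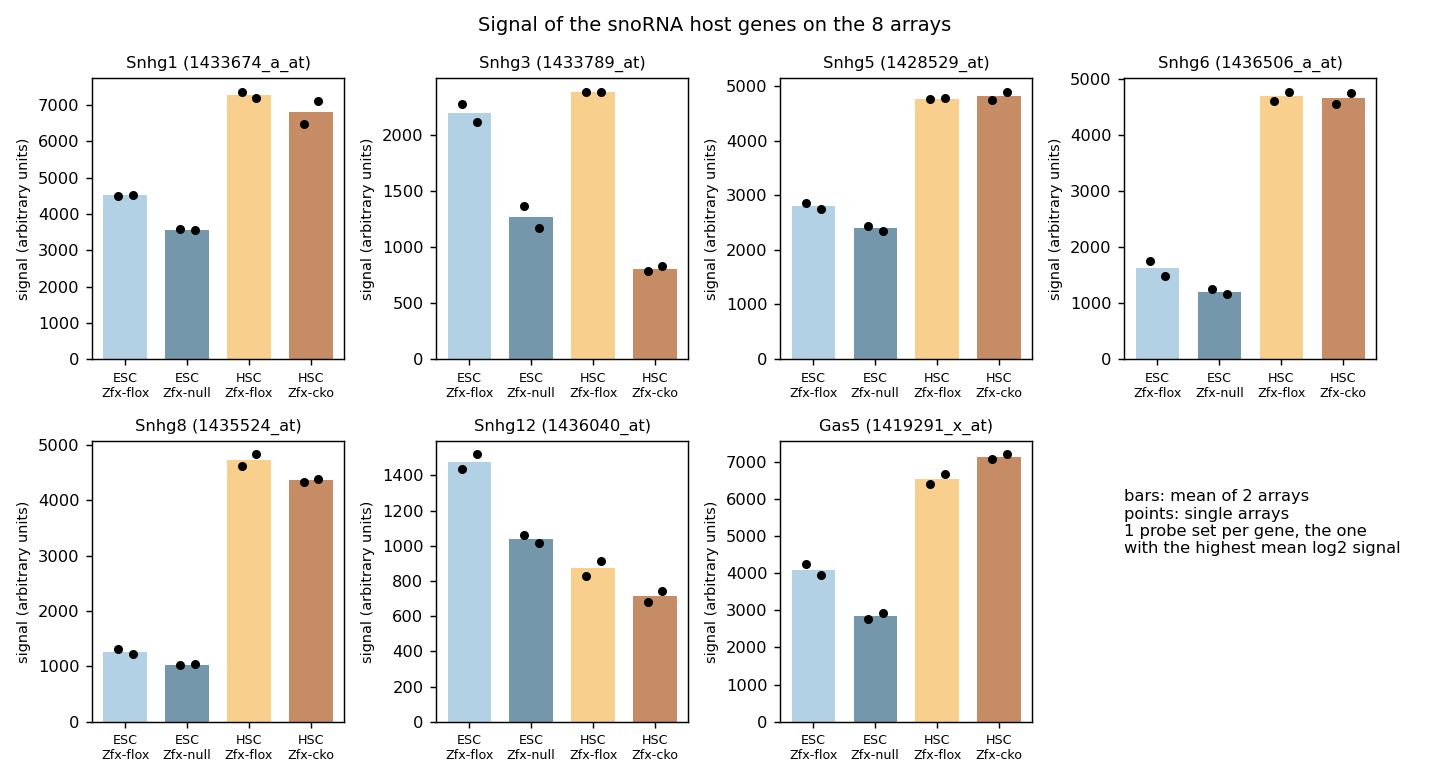
Deposited signal (arbitrary units, linear axis from 0) of 1 probe set per host gene in control and deleted ESC and in control and deleted HSC, with bars for the mean of 2 arrays and points for the arrays. Snhg3 is the gene with a large gap in both, the means going from 2190.3 to 1269 for ESC and from 2380.1 to 806 for HSC, whereas Snhg5 and Snhg6 differ in ESC and have overlapping arrays in HSC.

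In HSC, a comparison that the rule for choosing the genes did not name, the 7 hosts did not move together. Earlier results of these data were known when the genes were chosen. Snhg3 fell 2.95-fold and Snhg12 fell by less, Snhg5, Snhg6 and Snhg8 did not pass the test, and the probe sets of Snhg1 and of Gas5 went in both directions. Of the 15 probe sets bright enough to be tested, 3 fell, 1 rose and 11 did not pass at an adjusted p of 0.05 (limma, two-sided, Benjamini-Hochberg over all 27022 probe sets). The background was high, with 16% of all tested probe sets lower and 21.7% higher, so these counts are near it. With 1 probe set per gene, 2 of 7 hosts fell and 0 rose, beside 19.6% of genes lower and 22.5% higher. An unadjusted limma p under 0.05 was found for 5 of the 15 probe sets, beside 12383 of all 27022 tested. The median change of the 7 was -0.10, against 0.03 over all genes tested. The 2 Zfx-cko arrays were below both controls on 6 of the 16 probe sets, above both on 5, and overlapped on 5, whereas 30.1% of all tested probe sets were fully below and 40.3% fully above.

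Snhg3 read 2379 and 2381 on the control HSC arrays, against 787 and 825 after deletion. The groups were far apart and each pair of duplicates close together. The mean went from 2380.1 ± 1.11 to 806 ± 26.9 (SD, n = 2), a log2 change of -1.55 ± 0.08 (SE; 95% confidence interval -1.73 to -1.36; limma adjusted p = 2.66e-06). It ranked 245 among the 27022 probe sets from the most strongly lowered, and 87 among the 4502 probe sets with a mean of at least 839 in HSC Zfx-flox.

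Snhg12, which carries mainly H/ACA snoRNAs, read 828 and 915 on the control HSC arrays, against 680.0 and 745 after deletion. The groups did not overlap, but the gap between their nearest arrays was about as wide as that between duplicates. The log2 change was -0.28 ± 0.08 (limma adjusted p = 0.0202), and the call was lost without Zfx-cko replicate 1 (-0.22, adjusted p = 0.136) or Zfx-flox replicate 2 (-0.21, adjusted p = 0.14).

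Snhg5, Snhg6 and Snhg8 stayed bright in HSC and showed no change past the test. Snhg5 read 4761 and 4778 in controls, against 4755 and 4897 after deletion, with a log2 change of 0.02 and a 95% interval of -0.11 to 0.14 (limma adjusted p = 0.841). Snhg6 read 4606 and 4768 against 4554 and 4748, with an interval of -0.19 to 0.17 (adjusted p = 0.932). The arrays of both genes overlapped between the groups. Snhg8 read 4616 and 4831 against 4336 and 4390.3, without overlap, with an interval of -0.25 to 0.02 (adjusted p = 0.167). The difference between the cell types was not tested for these genes, because it contains the comparison that chose them.

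The probe sets of Snhg1 disagreed in HSC. 1454703_x_at rose from 577 and 589.9 to 748 and 773, a log2 change of 0.37 ± 0.10 (limma adjusted p = 0.0176), a call lost without any 1 of the 4 HSC arrays (adjusted p 0.0612 to 0.0904). The brightest probe set, 1433674_a_at, read 7369 and 7201 against 6494 and 7114, a log2 change of -0.10 (adjusted p = 0.216). The other three gave log2 changes of 0.22 (1437658_a_at, adjusted p = 0.0791), 0.15 (1439399_a_at, adjusted p = 0.242) and -0.03 (1433675_at, adjusted p = 0.83), so the gene had no common direction. The mean of the log2 values of all 5 probe sets changed by 0.12 (adjusted p = 0.075).

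Gas5 also split by probe set. 1424843_a_at fell from 214 and 211 to 150.5 and 178, a log2 change of -0.35 ± 0.09 (limma adjusted p = 0.0145), and this call was lost without Zfx-cko replicate 1 (-0.24, adjusted p = 0.0988), without Zfx-flox replicate 1 (adjusted p = 0.0629) or without Zfx-flox replicate 2 (adjusted p = 0.0544). The other Gas5 probe sets did not fall past the test. On the brightest, 1419291_x_at, both Zfx-cko arrays were above the controls, with 7064 and 7194 against 6399 and 6662 (log2 change 0.13, adjusted p = 0.133), and on 1449410_a_at they were also above, with 4709.9 and 4675 against 4256 and 4466 (0.11, adjusted p = 0.206). 1436222_at overlapped (-0.09, adjusted p = 0.517). The mean over the 4 probe sets changed by -0.05 (adjusted p = 0.49). A further pair of probe sets names a host together with a snoRNA and lies outside the choice of members: 1447896_s_at (Snora24 and Snhg8) rose by 0.18 (adjusted p = 0.0252) in HSC and differed by -0.44 in ESC, and 1455904_at (Snord47 and Gas5) had 0.20 (adjusted p = 0.0553) and -0.49. The shared Snhg8 probe set was the only 1 of the 2 past the test, and its sign was opposite to the -0.11 of the probe set of Snhg8 alone, which did not pass.

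**Figure D2:**
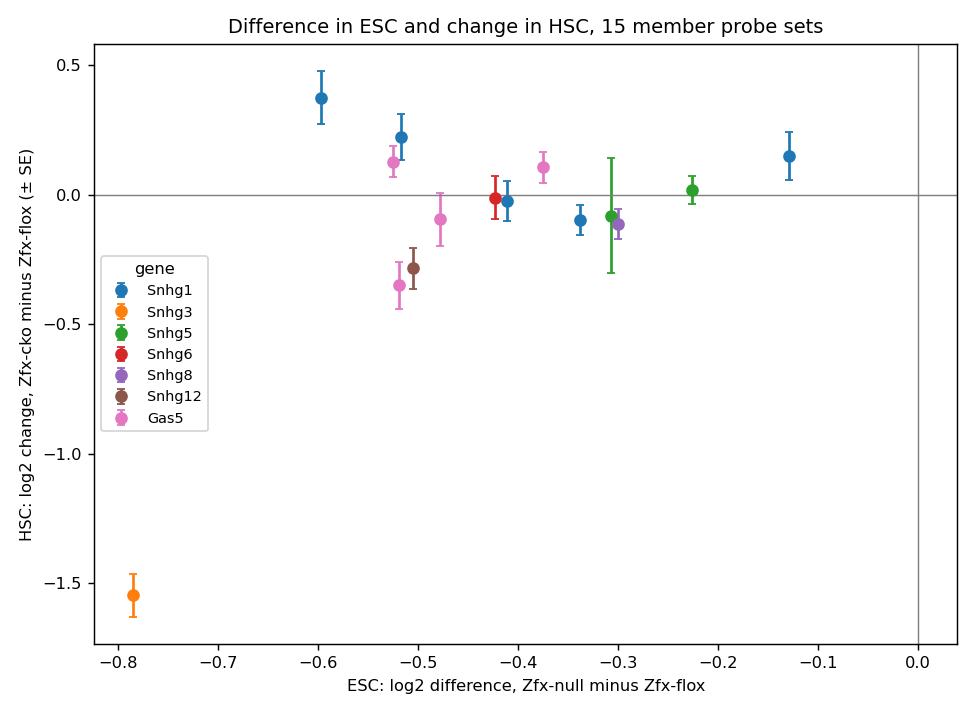
Each point is 1 of the 15 tested member probe sets, coloured by gene, with the log2 difference in ESC (Zfx-null minus Zfx-flox) on the x axis and the log2 change in HSC (Zfx-cko minus Zfx-flox, ± SE) on the y axis. All points lie left of 0 by the choice of the genes, Snhg3 lies apart at -0.78 and -1.55, and the Snhg1 and Gas5 points spread from -0.35 to 0.37 in HSC.

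Probe sets of 1 gene also disagreed on the level in control cells. Snhg1 was higher in HSC Zfx-flox than in ESC Zfx-flox by 1.61-fold on 1433674_a_at and by 2.03-fold on 1439399_a_at, but 5.29-fold lower on 1437658_a_at and 3.54-fold lower on 1454703_x_at. Gas5 was 1.59-fold higher on 1419291_x_at and 8.88-fold lower on 1424843_a_at. The HSC calls of Snhg1 (1454703_x_at, rising) and Gas5 (1424843_a_at, falling) both come from probe sets with lower signal in HSC. 1437658_a_at, also lower there, had an HSC change of 0.22 (limma adjusted p = 0.0791), and 1439399_a_at, higher there, had 0.15. From 1424843_a_at over 1436222_at and 1449410_a_at to 1419291_x_at, the Gas5 level differences were -3.07, -0.40, 0.30 and 0.67 on the log2 scale. The HSC changes followed the same order, at -0.35, -0.09, 0.11 and 0.13. For Snhg1 the orders differed. Whether level and change are linked was not tested. The 5′ to 3′ ratio of the Gapdh controls differs between the cell types as given above. Its part was not tested, and no probe positions were used here.

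Among genes with 1 probe set, Snhg8 was 3.72-fold and Snhg6 2.89-fold brighter in HSC Zfx-flox than in ESC Zfx-flox, and Snhg12 was 1.70-fold brighter in ESC. For Snhg3 the order of the groups was control HSC, control ESC, deleted ESC and deleted HSC, and no neighbours in that order overlapped. For Snhg12 it was control ESC, deleted ESC, control HSC and deleted HSC, again with no overlap. For Snhg6 and for Snhg5 on 1428529_at the HSC groups came first and overlapped, followed by ESC Zfx-flox and ESC Zfx-null. Signals of different probe sets were not compared as amounts of RNA, beyond picking the brightest per gene.

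**Figure D3:**
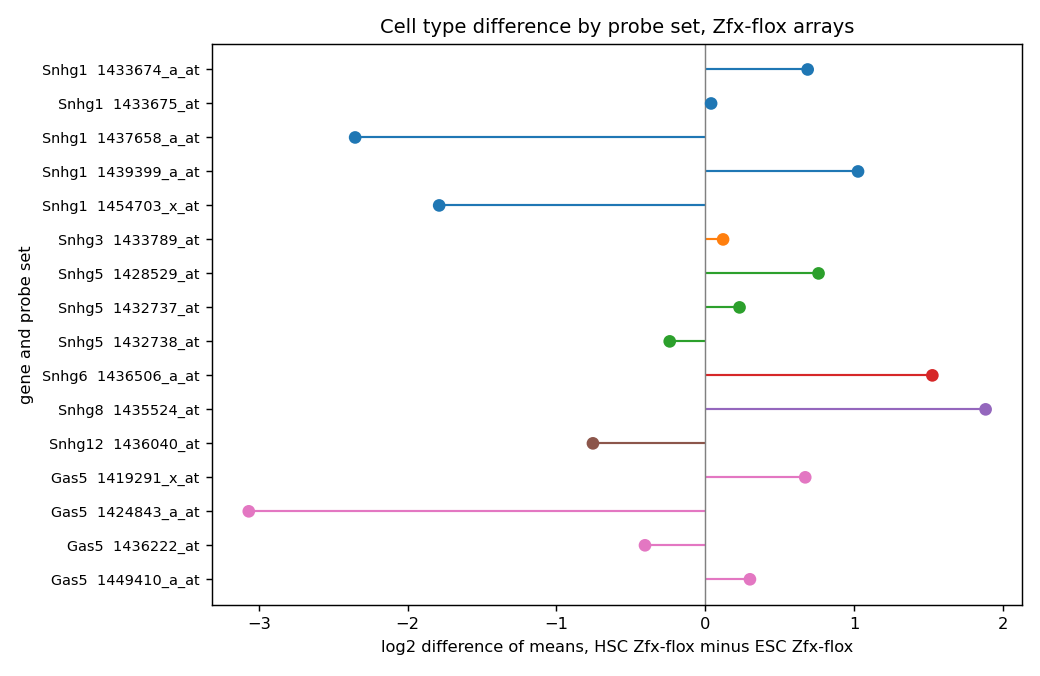
Log2 difference of mean signal between HSC Zfx-flox and ESC Zfx-flox (x axis) for each of the 16 probe sets, coloured by gene. The Snhg1 probe sets reach from -2.35 to 1.03 and those of Gas5 from -3.07 to 0.67, so the direction depends on the probe set.

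Snhg12 and Snhg3 lie close together on chromosome 4, and their neighbours were looked at after the member values had been seen. In RefSeq order the genes are Rab42, Snhg12, Trnau1ap, Rcc1, Snhg3 and Phactr4. Rcc1, the chromatin-bound exchange factor for the GTPase Ran, fell in HSC from 449 ± 19.3 to 179 ± 4.88 (log2 change -1.26 ± 0.11, limma adjusted p = 3.9e-05), and in ESC it had -0.26 (adjusted p = 0.129). Trnau1ap, a factor for selenocysteine incorporation, fell in HSC by 0.54 on the log2 scale (adjusted p = 0.00115). In ESC it had -0.18 (adjusted p = 0.166), and averaged over all its probe sets it passed there as lower (-0.26, adjusted p = 0.0177). Phactr4, a regulator of protein phosphatase 1 and actin, fell in HSC by 0.46 (adjusted p = 0.00242) and rose in ESC by 0.42 (adjusted p = 0.00705); averaged over all its probe sets, neither call held (adjusted p 0.088 and 0.4). On these probe sets, the 5 genes from Snhg12 to Phactr4 were all past the test as lower in HSC. Genes without a symbol of their own on the array were left out, so these 5 may not be adjacent. Over the nearest such neighbour on each side of the 7 hosts, all protein-coding, 4 of 13 tested fell and 2 rose in HSC. Those that rose were Slc3a2 beside Snhg1 (0.36, limma adjusted p = 0.00155) and Sgk3 beside Snhg6 (1.31, adjusted p = 2.86e-05). In ESC, with 1 probe set per gene, 1 of 11 fell, Slc3a2 (-0.42, adjusted p = 0.00138), and 1 rose. Of all genes, 19.6% were lower and 22.5% higher in HSC, and 14.3% and 15.3% in ESC, so these counts are near the background.

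**Figure D4:**
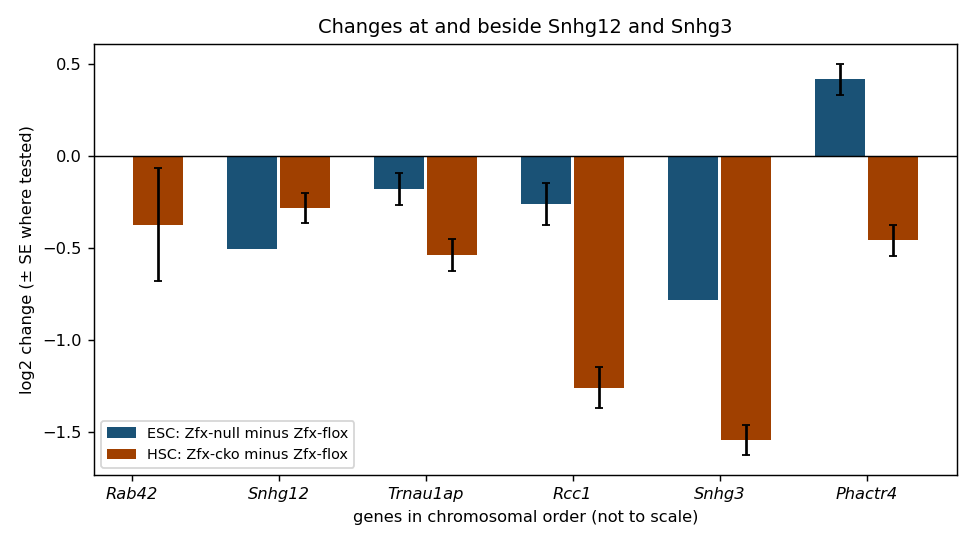
Log2 change (± SE where tested) in ESC (Zfx-null minus Zfx-flox) and HSC (Zfx-cko minus Zfx-flox) for 6 genes in their RefSeq order on chromosome 4, spacing not to scale. In HSC the bars of Rcc1 (-1.26) and Snhg3 (-1.55) reach lowest, and in ESC Snhg3 (-0.78) does. The ESC bars of Snhg12 and Snhg3 have no error because these genes were chosen by that comparison, and Rab42 was too dim to test in ESC.

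Of 15 other noncoding snoRNA hosts listed, 11 had a probe set. In ESC, 4 of 11 tested fell and 1 rose (median -0.26), beside 14.3% of all genes lower and 15.3% higher. Dancr fell from 1592 ± 29.8 to 999 ± 60.7 (-0.67 ± 0.11, limma adjusted p = 0.00239), Snhg7 by 0.63 on the log2 scale (adjusted p = 0.0122), and the dim Snhg18 rose from 72.5 ± 12 to 127 ± 3.89 (0.71, adjusted p = 0.0291). The Snhg7 call was lost without ESC Zfx-flox replicate 1 or 2 or Zfx-null replicate 2 (log2 change -0.64 to -0.61, adjusted p 0.0568 to 0.059), and that of Snhg18 without Zfx-flox replicate 1 or Zfx-null replicate 1 or 2 (0.57 to 0.74, adjusted p 0.0934 to 0.153), with no filter on dim probe sets (0.71, adjusted p = 0.0607) and with no pseudocount (0.82, adjusted p = 0.0605). In HSC, 3 of 8 fell and 1 rose (median -0.23), beside 19.6% of all genes lower and 22.5% higher. Snhg4, a host of H/ACA snoRNAs, fell from 1088 ± 16.5 to 571 ± 21.9 (-0.91 ± 0.07, adjusted p = 2e-05). Dancr and Snhg10 fell by 0.52 each (adjusted p = 0.00446 and 0.00348), though the mean of all Snhg10 probe sets gave -0.06 (adjusted p = 0.829). Zfas1, the host of box C/D snoRNAs next to Znfx1, read 586 ± 35.0 and 614 ± 30.3 in HSC (adjusted p = 0.727), and Rian did not pass in ESC (2077 ± 48.7 and 2063 ± 119.7).

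Most of the tested transcripts for proteins that assemble snoRNAs into particles fell in HSC. There, 13 of 19 tested fell and 1 rose (median -0.53), and in ESC 10 of 19 fell and 0 rose (median -0.24). In ESC, 10 of the 19 had an unadjusted limma p under 0.05, beside 9948 of all 27022 probe sets tested. Over all genes, 19.6% fell and 22.5% rose in HSC, and 14.3% fell and 15.3% rose in ESC. Nolc1, a nucleolar chaperone of these particles, fell in HSC from 1845 ± 80.2 to 709.9 ± 28.9 (-1.36 ± 0.10, adjusted p = 1.19e-05), and Naf1, an assembly factor of H/ACA particles, by 0.94 (adjusted p = 1.7e-05). In ESC, Nop56, a core box C/D protein whose own gene hosts snoRNAs, fell by 0.48 (adjusted p = 0.000747), and Nop10, a core H/ACA protein, by 0.42 (adjusted p = 0.000571). Nop10 did not pass in HSC (-0.09, limma adjusted p = 0.193). It passed there as lower with quantile normalization over all arrays or within cell types (adjusted p = 0.0347 each). With all its probe sets averaged it also passed (-0.26, adjusted p = 0.00428). Gar1 did not pass in ESC (-0.12, adjusted p = 0.358).

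Nop56 and Dkc1 also count among the protein-coding snoRNA hosts. That list fell for 8 of 25 genes and rose for 0 in ESC (median -0.15), and fell for 7 and rose for 4 of 25 in HSC (median -0.06). Of all genes, 14.3% were lower and 15.3% higher in ESC, and 19.6% and 22.5% in HSC. In ESC, 11 of the 25 had an unadjusted limma p under 0.05, beside 9948 of all 27022 probe sets tested. Tbrg4 fell in HSC by 1.18 (adjusted p = 0.000327) and the mitochondrial chaperone Hspa9 by 0.77 (adjusted p = 0.000402). In ESC, Taf1d, a subunit of the RNA polymerase I initiation factor, fell by 0.43 (adjusted p = 0.00109). The ribosomal protein gene Rpl7a read 11270.2 ± 1281 and 10178 ± 613 in ESC (adjusted p = 0.252), and Rpl13a 12248 ± 589 and 14396 ± 793 in HSC (adjusted p = 0.0628). Rpl13a passed as higher in HSC with each cell type fitted alone (adjusted p = 0.0101) and without any 1 ESC array (0.0411 to 0.045).

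Decay factors and translation regulators act on the spliced host RNA. Of 14 nonsense-mediated decay factors, 0 passed in ESC (median -0.12), and 2 fell and 1 rose in HSC (median -0.13). In ESC, 4 of the 14 had an unadjusted limma p under 0.05, beside 9948 of all 27022 probe sets tested. Ncbp1, the large subunit of the nuclear cap-binding complex, fell in HSC by 0.77 (adjusted p = 5.17e-05), and the exonuclease Xrn1 by 0.55 (adjusted p = 0.0033), a value of -0.22 (adjusted p = 0.0939) when all its probe sets were averaged. Rbm8a did not pass in HSC (-0.16, limma adjusted p = 0.0946), nor did Rnps1 in ESC (adjusted p = 0.972). Of 14 regulators of mTOR and of oligopyrimidine-tract RNAs, 2 fell and 1 rose in ESC, and 4 fell and 2 rose in HSC. Of all genes, 14.3% were lower and 15.3% higher in ESC and 19.6% and 22.5% in HSC, so the counts of decay factors and regulators are near or under the background. Larp1, which binds the oligopyrimidine tract, fell in both, by 0.41 in ESC (adjusted p = 0.00138) and from 1752 ± 5.69 to 1026 ± 21.8 in HSC (-0.76 ± 0.06, adjusted p = 1.85e-05). Tia1, an RNA-binding protein of stress granules, rose in HSC by 0.74 (adjusted p = 4.61e-05). Rheb did not pass in HSC (0.12, limma adjusted p = 0.239), nor did Eif4ebp1 in ESC (-0.19, adjusted p = 0.16). Deptor, an mTOR inhibitor, fell in ESC by 0.57 (adjusted p = 0.0109), a call lost without Zfx-flox replicate 2 (adjusted p = 0.066) or Zfx-null replicate 1 (0.0596).

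Long noncoding RNAs that host no snoRNA served for comparison. In ESC 5 of 14 fell and 1 rose (median -0.33), and in HSC 2 of 13 fell and 5 rose (median 0.28), beside 14.3% lower and 15.3% higher of all genes in ESC and 19.6% and 22.5% in HSC. Neat1, the scaffold of paraspeckles, fell in ESC from 2789 ± 38.6 to 1426 ± 171 (-0.97, adjusted p = 0.000832), and its mean over all probe sets had -0.48 (adjusted p = 0.0986). In HSC, Pvt1, the neighbour of Myc, fell from 489 ± 25.5 to 72.9 ± 8.29 (-2.53 ± 0.15, adjusted p = 3.65e-06), and Malat1, an abundant nuclear RNA, rose from 640.3 ± 12 to 1514 ± 25.9 (1.22 ± 0.07, adjusted p = 3.52e-06). Oip5os1 did not pass in HSC (-0.11, limma adjusted p = 0.332), but its mean over all probe sets fell (-0.26, adjusted p = 0.0177). Meg3 did not pass in ESC (-0.01, adjusted p = 0.921).

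Profiles were compared over the 8 arrays after centring log2 values on each cell type's mean, against the average of the 7 hosts. Among 11175 genes tested in both cell types, Pearson's r was highest for Cnnm2 (0.996), Pola2 (0.994), Chchd1 (0.994), Tmem170b (0.992) and Cbfa2t2 (0.992). The average was higher on control than on deleted arrays in both cell types, the ESC part of which the choice of genes fixed, so these values are a description. In HSC the average rests on Snhg3 (-1.55), with the other 6 genes between -0.28 and 0.13. The hosts' own r with the average ran from 0.696 for Gas5 to 0.973 for Snhg12, with Snhg3 at 0.851.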

How the data were processed

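Total RNA of 8 samples was measured on 8 arrays. The authors deposited linear signal intensities; scanning and raw data processing used GCOS 1.4, per the submitters' processing notes, and how probes were summarised is not stated. In the deposited values, the mean of each array after trimming 2% from both ends was 250, so levels are relative to an array's total. For this report, 64 control probe sets were left out, 14.2 (the 25th percentile) was added, and log2 was taken of the deposited intensities. Probe sets were tested where their mean in a cell type reached the 40th percentile (27022 in each), with limma 3.58.1 in R 4.3.3: 4 group means over 8 arrays, 4 residual degrees of freedom, a variance trend, two-sided tests and Benjamini-Hochberg adjustment. The script was tested on simulated data. The number of arrays limits the precision.

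Of 45037 probe sets, 34945 had 1 gene symbol, 932 several and 9160 none; 34754 matched RefSeq (GRCm38.p6). The members and lists were chosen with earlier results of these data known. Named genes were all members, the brightest gene not past the threshold per list and cell type, and the 5 most similar profiles. To these came up to 3 genes per list and cell type with the largest change past the threshold (fewer outside the noncoding hosts). Neighbours were added after values were seen. A gene on a list is represented by its probe set with the highest mean log2 signal. Alternatives were other pseudocounts, scalings, filters, gene summaries, fits and leaving out each array.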

Additional observations from a re-analysis of the deposited data

Results flagged for a closer look

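Some probe sets went one way on both arrays in ESC and the opposite way on both in HSC. The HSC minus ESC difference in log2 change was 0.74 for Snhg1 on 1437658_a_at, 0.97 on 1454703_x_at, 0.65 for Gas5 on 1419291_x_at and 0.48 on 1449410_a_at. It was 0.62 for 1447896_s_at (Snora24 and Snhg8) and 0.69 for 1455904_at (Snord47 and Gas5). These differences were not tested, since the ESC values chose the genes.

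For other named genes the difference was tested as an interaction term (limma, adjusted p at or under 0.05). Among noncoding hosts it was 0.72 for Snhg7 (adjusted p = 0.0243), -1.23 for Snhg18 (adjusted p = 0.00931) and -0.50 for Snhg4 (adjusted p = 0.00575), which fell in both and further in HSC. Among coding hosts it was 0.96 for Taf1d, -0.52 for Hspa9 and -0.85 for Tbrg4. Among genes for snoRNA particle proteins it was 0.33 for Nop10, -0.71 for Naf1 and -1.01 for Nolc1. Decay and mTOR factors gave -0.60 for Ncbp1, -0.68 for Xrn1, -0.35 for Larp1, 0.75 for Deptor and 0.75 for Tia1. Other long noncoding RNAs gave 2.01 for Neat1, 0.94 for Dleu2, 1.02 for Malat1, -2.23 for Pvt1 and 0.53 for Oip5os1.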

How the results depend on the processing

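The fall of Snhg3 in HSC passed the threshold under all 20 alternatives (log2 change -1.64 to -1.37, adjusted p 9.17e-07 to 0.00038). The other HSC calls of members were less stable. Gas5 1424843_a_at missed the threshold with each cell type fitted alone (-0.35, adjusted p = 0.052). Snhg1 1454703_x_at missed it with median centring (0.28, adjusted p = 0.127) and without a variance trend (0.37, adjusted p = 0.0657), and Snhg12 without a trend (-0.28, adjusted p = 0.0753). Leaving out each of the 8 arrays gave -0.46 to -0.24 for Gas5 1424843_a_at, 0.35 to 0.40 for Snhg1 1454703_x_at and -0.36 to -0.21 for Snhg12. Of the alternatives run for the members, 264 HSC values stayed on their side of the threshold, 13 lost a call and 6 gained one, all of them as higher: Gas5 1449410_a_at with quantile normalization over all arrays (adjusted p = 0.0245) or within cell types (0.0139), Gas5 1419291_x_at (0.0429) and Snhg1 1439399_a_at (0.0389) with each cell type alone, and the block gains below; 275 ESC differences moved by less than the spread between arrays and 8 by more. ESC Snhg1 1439399_a_at reached 0.005 without 1 array. Over all probe sets, 57.5% of HSC calls were higher, against 47.4% after median centring and 49.0% after quantile normalization over all arrays, with the median of all at 0.06, -0.04 and -0.03.

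Replicate numbers were shared between groups, with only 2 pairs per cell type. Deviations of same-numbered arrays correlated at 0.319 in ESC and 0.0716 in HSC. With a replicate block, calls went from 6742 to 8250 in ESC and from 10194 to 11557 in HSC, and Snhg1 1437658_a_at (adjusted p = 0.0397) and 1439399_a_at (adjusted p = 0.0451) passed in HSC, as did Rpl13a (0.00789), Rbm8a (0.0349) and Rheb (0.0438), and Eif4ebp1 (0.0357) in ESC. The block changed no other call of a named gene.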
